A study of Mus musculus with 141 samples.

Results

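The mouse *Cyp2j* epoxygenase family was examined in liver, lung and kidney of Collaborative Cross (CC) mice, a panel of recombinant inbred strains derived from several founder strains. The members are the 7 genes whose recorded symbols are *Cyp2j5*, *Cyp2j6*, *Cyp2j8*, *Cyp2j9*, *Cyp2j11*, *Cyp2j12* and *Cyp2j13*, out of 24423 genes, and each was read in every library. The libraries came from 3 tissues of 47 strains, with 1 adult male per strain aged 8 to 12 weeks, and the liver, lung and kidney of each strain came from the same animal. All mice had breathed clear air for 6 hours a day over 2 weeks, so no untreated or differently treated group exists. Whole-tissue RNA (integrity at least 7.0) was depleted of ribosomal RNA and sequenced as single-end reads of 50 bases. With 1 mouse per strain, a difference between strains cannot be told apart from a difference between individual mice. In bulk tissue, fewer cells of a type and less RNA per cell also cannot be told apart.

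CYP2J enzymes are membrane-bound cytochromes P450 of the endoplasmic reticulum. They insert oxygen into a double bond of arachidonic acid and so make epoxyeicosatrienoic acids, lipid mediators studied for their actions on blood vessels, on kidney salt handling and on inflammation. Electrons reach the enzyme from the P450 reductase POR, and the products are hydrolysed to diols mainly by soluble epoxide hydrolase, the product of *Ephx2*. Several CYP2C enzymes make the same epoxides, while many CYP4 enzymes hydroxylate the far end of the same substrate.

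The 7 genes lie in a cluster on the minus strand of chromosome 4 (NCBIM37, the mm9 assembly), in a block of 637 kb at chr4:95694225-96330845. From low to high coordinates the order is *Cyp2j13*, *Cyp2j12*, *Cyp2j11*, *Cyp2j8*, *Cyp2j6*, *Cyp2j9* and *Cyp2j5*. Between them the annotation also places *Cyp2j7-ps* and several pseudogenes, which were not analysed here. The plus-strand genes *Fggy* and *Hook1* precede the block. The coding sequences of the 6 members with a complete one in the annotation were between 74.6% and 88.9% identical over 15 pairs, with a median of 77.5%. *Cyp2j8* and *Cyp2j11* were the most alike, and the next pair shared 80.1%. Despite this kinship, between 98.0% and 100% of the 50-base windows within each annotated transcript's exons occurred once in the reference genome. Reads of this length from these exons could thus nearly always be placed on a single member. The annotated *Cyp2j5* transcript has 2345 bases against a most common recorded length of 3651, and that of *Cyp2j12* 1781 against 1944. The remaining bases, exon junctions and strain-specific genomes were not checked.

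The region from 250 bases before to 50 bases after each gene's start was taken from the RefSeq promoter table, and each matched chromosome 4 of NCBIM37 exactly once. The starts of 3 genes are printed, all 5′ to 3′ on the minus strand. *Cyp2j5*, the most abundant member in liver and kidney, is at chr4:96330761-96331060. *Cyp2j11* (chr4:96015322-96015621) and *Cyp2j8* (chr4:96174039-96174338) are the pair with the most similar coding sequence, yet the first was abundant in most kidneys and the second was near the detection limit. Capitals in *Cyp2j5* mark a match to AGGTCA, a motif bound by many nuclear receptors, and a match to TATAAA, read here on the opposite strand as TTTATA. Capitals in the other two mark the stretch over which they align.
Cyp2j5: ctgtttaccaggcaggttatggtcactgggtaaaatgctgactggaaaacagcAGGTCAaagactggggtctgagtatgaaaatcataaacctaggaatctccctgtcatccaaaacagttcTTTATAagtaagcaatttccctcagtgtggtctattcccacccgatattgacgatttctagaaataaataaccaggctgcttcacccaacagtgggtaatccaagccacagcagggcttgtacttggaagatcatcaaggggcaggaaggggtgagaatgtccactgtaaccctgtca
Cyp2j11: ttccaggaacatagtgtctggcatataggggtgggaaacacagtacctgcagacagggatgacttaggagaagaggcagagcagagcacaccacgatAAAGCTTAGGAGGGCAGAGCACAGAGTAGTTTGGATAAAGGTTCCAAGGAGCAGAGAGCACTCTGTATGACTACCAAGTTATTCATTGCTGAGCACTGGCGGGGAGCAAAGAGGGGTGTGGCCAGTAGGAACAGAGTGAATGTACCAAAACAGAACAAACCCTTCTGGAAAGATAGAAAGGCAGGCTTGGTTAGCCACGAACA
Cyp2j8: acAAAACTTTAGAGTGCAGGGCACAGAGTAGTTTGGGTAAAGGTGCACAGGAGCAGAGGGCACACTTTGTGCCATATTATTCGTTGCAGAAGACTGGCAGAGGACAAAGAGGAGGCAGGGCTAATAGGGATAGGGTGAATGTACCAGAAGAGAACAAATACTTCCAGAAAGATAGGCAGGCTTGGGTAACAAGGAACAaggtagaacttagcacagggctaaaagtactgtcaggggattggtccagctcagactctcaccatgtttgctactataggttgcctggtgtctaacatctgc
Over the aligned stretch, 157 of 205 positions (76.6%) were identical between *Cyp2j8* and *Cyp2j11*. Searched on both strands, AGGTCA began 197 bases and TATAAA 128 bases before the start of *Cyp2j5*, and neither was found in the windows of the other 6 members. AGGTCA is held by 16.3% and TATAAA by 13.6% of all 32851 promoter windows of this length, so both matches are common and serve only as a description.

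Each library held between 1738046 and 42158453 counts, with medians of 10423382 in liver, 9338124 in lung and 8245850 in kidney. The precursor of ribosomal RNA, *Rn45s*, took a very unequal part of them: 0.321% to 69.0% of counts in liver, 0.696% to 71.7% in lung and 0.146% to 63.1% in kidney. Because TPM (transcript abundance scaled by transcript length and by the total of a library) divides by everything counted, levels are given as TPM rescaled by TMM factors over all libraries (normalised TPM) unless the deposited TPM is named. All 7 members are recorded with a single transcript. This matters because the 6112 genes recorded with several transcripts held only 2.55% of all counts. *Gapdh*, with 2 recorded transcripts, was at 0 in 84 libraries. Levels of such genes outside the family are therefore not set against the members.

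*Cyp2j5*, the member long known from mouse kidney and liver, was the dominant gene in both. In liver its level ran from 334 (CC062) through a median of 750 to 1085 (CC057) normalised TPM. In kidney it ran from 538 (CC068) through 1075 to 1293 (CC028). The ranges overlap, although kidney was higher than liver in 45 of 47 mice. In lung the same gene reached 7.73 at most, with a median of 1.26, so the lung range lies wholly below the others.

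*Cyp2j6*, a member with broad tissue expression, was highest in liver. Liver levels ran from 16.1 (CC068) through 101 to 165 (CC038), kidney levels from 3.93 (CC042) through 31.8 to 44.5 (CC027), and lung levels from 2.09 (CC061) through 8.97 to 17.9 (CC059). The ranges overlap across strains, but within each of the 47 mice liver exceeded kidney. *Cyp2j9*, also known from brain, had the narrowest contrast of tissues. Its medians were 23.2 in liver, 9.54 in lung and 28.6 in kidney, with ranges of 3.93 to 45.8, 2.82 to 14.9 and 7.43 to 66.7.

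*Cyp2j11* and *Cyp2j13* were kidney genes in these animals. *Cyp2j13* ran from 121 (CC042) through 332 to 691 (CC062) normalised TPM in kidney, against medians of 0.500 in liver and 0.247 in lung. *Cyp2j11* ran from 12.9 (CC038) through 247 to 402 (CC053) in kidney, against 0.403 in liver and 0.153 in lung. For both genes the lowest kidney exceeded all lungs, and for *Cyp2j11* it also exceeded all livers, whose highest value was 6.80. The highest *Cyp2j13* liver, at 14.6, was likewise below every kidney.

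The last pair of members was scarcely detected. *Cyp2j8* had a median of 1.28 (0 to 3.77) in kidney, 0.575 in liver and 0 in lung, and 11 kidneys, 36 livers and all 47 lungs held 3 counts or fewer. *Cyp2j12* had a median of 0 in every tissue. Summed over all 47 libraries it drew 4 counts in liver, 4 in lung and 18 in kidney. For kidney that is 0.0440 CPM (counts scaled to the library total, here without TMM factors). Its exact Poisson 95% interval, 0.0261 to 0.0695, covers counting error only. The CPM values given below for the tissue tests and for the spread between strains were also scaled by TMM factors.

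**Figure D1:**
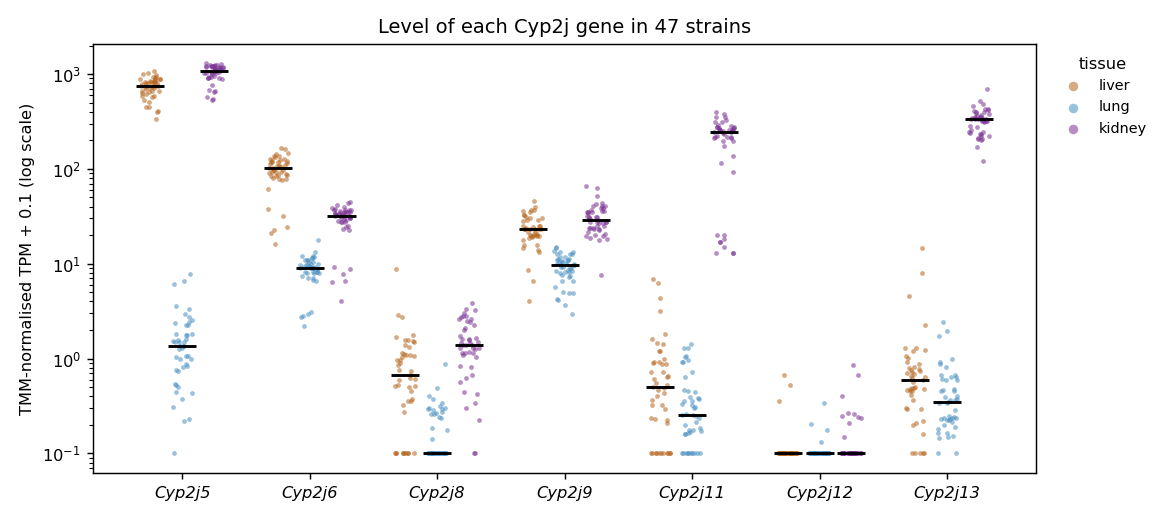
Level of the 7 *Cyp2j* genes in liver, lung and kidney; the y axis is TMM-normalised TPM plus 0.1 on a log scale, each point is 1 library (47 per tissue) and the black bars are medians. *Cyp2j5* has medians of 750 in liver, 1075 in kidney and 1.26 in lung, while *Cyp2j11* and *Cyp2j13* rise above 10 only in kidney apart from 1 liver library at 14.6 for *Cyp2j13*.

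Within a library, members were ranked on the deposited TPM, which is divided by transcript length. In kidney the order of the medians was *Cyp2j5* (1178), *Cyp2j13* (374), *Cyp2j11* (251), *Cyp2j6* (34.5), *Cyp2j9* (32.1), *Cyp2j8* (1.40) and *Cyp2j12* (0). In liver *Cyp2j5* (465) was followed by *Cyp2j6* (63.7) and *Cyp2j9* (13.9), with the others under 1. In lung *Cyp2j6* (15.2) and *Cyp2j9* (13.7) came before *Cyp2j5* (1.93). Of the 18 pairs of neighbours in these orders, 14 differed (sign-flip permutation test on log2(TPM + 0.1) over 47 libraries, adjusted p at most 0.05). The orders were taken from the medians of the same libraries. Some of the 14 pairs lie near the detection limit, where zeros and the added constant weigh on the test. In lung, *Cyp2j8* and *Cyp2j12* both had a median of 0, and *Cyp2j8* was higher in 20 of 47 libraries. *Cyp2j6* and *Cyp2j9* could not be separated in lung (adjusted p = 0.285, permutation) or in kidney (adjusted p = 0.285, permutation), nor could the scarce *Cyp2j8*, *Cyp2j13* and *Cyp2j11* in liver.

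Summed over the 7 genes, the family reached a median of 1643 normalised TPM in kidney (1018 to 2067), 885 in liver (382 to 1270) and 20.8 in lung (7.31 to 36.6). Kidney exceeded liver in all 47 mice by a median ratio of 1.91 (permutation p = 1e-05, the smallest that the draws can give). On the deposited TPM the median ratio was 3.72. The make-up of the sum also differed between tissues. *Cyp2j5* supplied a median of 85.4% of the sum in liver, 64.8% in kidney and 6.20% in lung. *Cyp2j6* supplied 11.6%, 1.91% and 42.9% in that order, and *Cyp2j9* 2.86%, 1.71% and 45.2%. *Cyp2j13* and *Cyp2j11* gave 19.4% and 14.1% of the kidney sum. Liver and kidney differed in the *Cyp2j5* share by 22.5 ± 10.1 percentage points (SD, n = 47, permutation p = 1e-05), with liver higher in every mouse. Of 21 such comparisons of shares, 17 passed an adjusted p of 0.05 (permutation), and those that did not concerned *Cyp2j8* and *Cyp2j12*. Some that passed also rest on few counts. Between liver and lung, *Cyp2j8* passed with 21 mice higher in liver and 20 lower, at median counts of 2 and 0. For *Cyp2j11* the median counts there were 2 and 1, and for *Cyp2j13* 4 and 4. A share in lung is taken of a far smaller sum.

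*Cyp2j5* led in all 47 livers and in 46 kidneys. The exception was the kidney of CC062, where *Cyp2j13* held the first place at 40.2% of the sum. In lung the lead was divided, with *Cyp2j9* first in 25 libraries and *Cyp2j6* in 22.

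**Figure D2:**
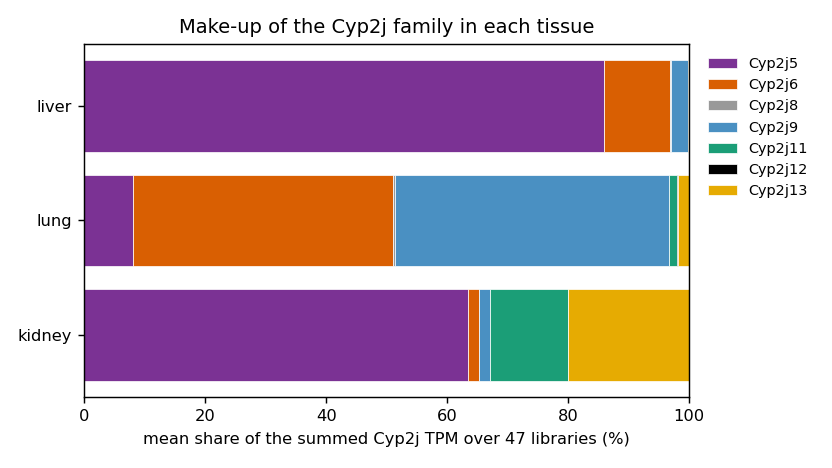
Make-up of the *Cyp2j* family by tissue; the x axis is the mean share of the summed deposited TPM over 47 libraries in percent, and each colour is 1 gene. *Cyp2j5* fills most of the liver (mean 85.9%) and kidney (63.4%) bars, while lung is divided between *Cyp2j6* (42.9%) and *Cyp2j9* (45.2%).

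Each pair of tissues was then tested over all 12127 genes that passed a filter on low counts, with limma-voom on counts and the mouse as a block. A gene was called at an adjusted p of at most 0.1 and a log2 fold change of at least 1 in size. Of the 7 members 5 entered the test, since *Cyp2j8* and *Cyp2j12* fell under the filter. *Cyp2j11* and *Cyp2j13* passed through their kidney libraries, so their place among the tested genes already reflects that tissue.

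Between liver and kidney, *Cyp2j6* was the 1 member called higher in liver (15.6% of all genes tested were). Its mean was 131 ± 48.1 TMM-scaled CPM (SD, n = 47) in liver against 39.0 ± 13.1 in kidney. The log2 fold change was 1.74 ± 0.06 (SE, limma-voom adjusted p = 4.2e-47). *Cyp2j11* and *Cyp2j13* were the 2 called higher in kidney (20.8% of all genes were). *Cyp2j13* averaged 526 ± 161 CPM in kidney and 1.73 ± 3.89 in liver, a log2 fold change of -9.28 ± 0.23 (limma-voom adjusted p = 1.4e-61). For *Cyp2j11* the log2 fold change was -8.15 ± 0.28 (limma-voom adjusted p = 3.5e-49), and kidney was higher in 47 of 47 mice for both genes. *Cyp2j5* (-0.48 ± 0.06) and *Cyp2j9* (-0.32 ± 0.08) were lower in liver at adjusted p of 6.8e-12 and 0.00014 but short of the size limit. These calls depend on the scaling. Scaling by total counts moved the median of all genes by -0.95 between liver and kidney, and under it *Cyp2j5* (-1.41) and *Cyp2j9* (-1.31) were called lower in liver, while *Cyp2j6* (0.81) fell short of the limit.

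Between liver and lung, 4 members were called higher in liver (23.9% of all genes were) and 0 of the 5 higher in lung (31% of all genes were). *Cyp2j5* averaged 1005 ± 233 CPM in liver and 2.09 ± 2.06 in lung, a log2 fold change of 9.37 ± 0.14 (limma-voom adjusted p = 1.7e-82). *Cyp2j6* differed by 3.53 ± 0.07, and both were higher in liver in all 47 mice. *Cyp2j9* differed by 1.49 ± 0.08 and *Cyp2j11* by 1.32 ± 0.28, the latter on median counts of 2 in liver and 1 in lung. The calls for *Cyp2j9* and *Cyp2j11* were lost under scaling by total counts, where their log2 fold changes were 0.07 and -0.06 against a median of -1.44 for all genes. The fifth, *Cyp2j13*, differed by 0.95 ± 0.22 and was not called. It passed the limit when the fit was restricted to the tissues compared (1.08) and in the edgeR quasi-likelihood test (1.055).

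Between lung and kidney, all 5 tested members were called higher in kidney (20.6% of all genes were) and 0 higher in lung (25.5% of all genes were). The log2 fold changes, lung less kidney, were -9.85 ± 0.16 for *Cyp2j5*, -9.47 ± 0.28 for *Cyp2j11*, -10.23 ± 0.22 for *Cyp2j13*, -1.79 ± 0.07 for *Cyp2j6* and -1.80 ± 0.08 for *Cyp2j9*.

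For *Cyp2j13* and *Cyp2j11* in liver and *Cyp2j5* in lung, the highest and second highest values came from libraries in which markers of another tissue were also high. The liver of CC035, with 14.6 normalised TPM of *Cyp2j13*, ranked first among livers in the summed level of 8 proximal tubule markers (221 against a median of 19.5). It also held 2806 of *Kap*, a kidney androgen-regulated gene, against a liver median of 92.2. CC033 ranked second in both *Cyp2j13* (7.89, from 8 counts) and the tubule markers (204). The same livers were the highest in *Cyp2j11*, at 6.80 in CC033 (from 3 counts) and 6.10 in CC035. Without both livers the highest *Cyp2j13* was 4.45 and the median moved from 0.500 to 0.464, while for *Cyp2j11* the highest was 4.30 and the median moved from 0.403 to 0.390. The lung of CC010, highest in *Cyp2j5* at 7.73, ranked first in the sum of 8 hepatocyte markers (1267 against a median of 103), and CC015 ranked second in both. *Kap* was also above its lung median of 47.7 in both lungs, at 112.5 in CC010 and 379 in CC015. In the tubule markers these lungs ranked 11 and 5. Which tissue this *Cyp2j5* came from was not tested. Without both lungs the highest *Cyp2j5* was 6.02 and the median stayed at 1.26. With the strains CC010, CC015, CC033 and CC035 left out of the fit, an alternative added after seeing the data, the members' tissue calls stood. *Cyp2j11* was still called higher in liver than in lung, at a log2 fold change of 1.20 (limma-voom adjusted p = 2.9e-05). That call rests on median counts of 2 in liver and 1 in lung over all strains. Under total-count scaling of all strains the difference was -0.06, so a higher level in liver is not shown. The part of these markers in the next highest values and in the low values of the other libraries was not tested.

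The other genes of the pathway were read from lists of known function. Of 11 tested *Cyp2c* genes, from a family that includes other arachidonate epoxygenases, 11 were called higher in liver than in kidney (15.6% of all genes were). Also 11 were called higher in liver than in lung (23.9% of all genes were). Of these 11 genes, 9 are recorded with a single transcript. *Cyp2c29* averaged 3361 ± 1297 normalised TPM in liver and 3.80 ± 7.35 in kidney, a log2 fold change of 10.92 ± 0.25. *Por*, the electron donor shared by these enzymes, was measured at 316 ± 247 normalised TPM in liver, 197 ± 38.4 in lung and 252 ± 61.0 in kidney. Its log2 fold change between liver and kidney was 0.12 ± 0.12 (limma-voom adjusted p = 0.33), and that between liver and lung 0.50 ± 0.11. Of the 6 genes for redox partners and haem, 3 were called higher in liver than in kidney (15.6% of all genes were), 2 of them with a single recorded transcript, *Pgrmc1* (3.12 ± 0.04) and *Cyb5r3*, a cytochrome b5 reductase (1.72 ± 0.06). *Ephx2* was higher in liver than in kidney by 1.24 ± 0.12 and than in lung by 6.32 ± 0.18. It is recorded with 4 transcripts, and genes with several transcripts held few of the counts, so these folds may rest on a small part of its reads.

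Of 11 tested *Cyp4* genes, 6 were called higher in liver (15.6% of all genes were) and 1, *Cyp4a31*, higher in kidney (20.8% of all genes were). The 6 have a single recorded transcript and *Cyp4a31* has 2. *Cyp4a12a*, whose product makes 20-HETE, averaged 325 ± 136 normalised TPM in liver, 194 ± 108 in kidney and 0.369 ± 0.303 in lung, and so was high in liver and kidney as *Cyp2j5* was. Of 10 genes of prostanoid synthesis, 2 were called higher in liver than in lung (23.9% of all genes were) and 6 higher in lung (31% of all genes were), including *Ptgis*, the prostacyclin synthase, at 67.5 ± 18.6 against 2.31 ± 3.17. Of 7 tested genes reported as targets of epoxyeicosatrienoic acids, 6 were called higher in lung than in liver (31% of all genes were), 5 of them with a single recorded transcript, and 1, *Ppara*, with 2 transcripts, was called higher in liver. *Trpv4*, a calcium channel, was highest in kidney at 61.4 ± 15.5 normalised TPM, against 0.764 ± 0.546 in liver and 3.99 ± 1.88 in lung.

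Among the members, the strains differed most for *Cyp2j11* in kidney, where the highest strain was 31.2 times the lowest. The SD of log2 CPM over strains was 1.61, above that of 98.8% of the 10086 genes with a median of at least 10 counts in kidney. For *Cyp2j6* the SD was 0.80 in kidney, 0.79 in liver and 0.62 in lung. The dominant *Cyp2j5* was ordinary, at 0.38 in liver and 0.34 in kidney, where the medians over all genes were 0.39 and 0.35. The lung SD of *Cyp2j5*, 1.33, exceeded those of liver and kidney (permutation adjusted p = 9e-05 each), at a level of few counts. Of 9 comparisons of spread between tissues, the other 7 did not pass.

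For *Cyp2j11* and *Cyp2j6* the kidney values fell into separate clusters, with gaps of 2.15 and 1.27 on the log2 scale. The 9 strains below the *Cyp2j11* gap were exactly those for which the deposited files record a *Cyp2j6* transcript of 3592 bases. The 6 below the *Cyp2j6* gap were the 5 strains with a recorded length of 3584 and CC042, the 1 strain with 3585. The most common length, 3595 bases, is recorded for 31 strains, and CC049 has 3594. These lengths come from the strain-specific genomes used for alignment, and the lengths of *Cyp2j5* divide the strains in the same way. Such differences are common, since 69.3% of all genes have a recorded length that varies between strains. The grouping was noticed after the levels had been seen and is not one of the study's groups. Between the length groups, only values, fold changes with intervals and overlaps are therefore given, with no test. The correlations given further below within the 31 strains of length 3595 carry permutation p-values but rest on this same later grouping.

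In kidney the 9 strains of length 3592 had *Cyp2j11* levels of 12.9 (CC038) to 20.1 (CC025), with a median of 16.7 normalised TPM. The 31 strains of length 3595 ran from 93.2 to 380, with a median of 250. The groups do not overlap. The log2 fold change was -3.93 ± 0.16 (SE, 95% interval -4.26 to -3.61), a 15.3-fold lower level. *Cyp2j11* was the 1 gene of 10086 in kidney whose values in these groups did not overlap (0.00991% of genes). The fold changes of the neighbouring members there were 0.03 ± 0.07 for *Cyp2j5*, -0.02 ± 0.08 for *Cyp2j6*, 0.07 ± 0.15 for *Cyp2j9* and 0.16 ± 0.14 for *Cyp2j13*. In liver and lung, none of the 3 members that reached a median of 10 counts was apart between these groups, and 0% of all genes were in either tissue. *Cyp2j11* held 5 counts or fewer in the livers and 9 or fewer in the lungs of the 9 strains.

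The 5 strains of length 3584 (CC029, CC053, CC061, CC062 and CC068) were low in *Cyp2j6* in all 3 tissues. In liver they held 31.6, 21.0, 24.1, 38.0 and 16.1 normalised TPM in that order, against 61.0 to 164 (median 103) in the 31 strains of length 3595. In kidney they held 9.18, 7.69, 8.65, 6.33 and 6.55, against 22.6 to 44.5 (median 33.1). In lung they held 2.64, 2.87, 2.09, 2.98 and 2.70, against 6.53 to 17.9 (median 9.08). On this scale the groups do not overlap in any tissue. On deposited TPM they stayed apart in kidney, at 8.32 to 12.1 against 18.8 to 58.3, but touched in liver (9.40 to 20.5 against 20.5 to 90.1) and in lung (3.51 to 6.29 against 6.24 to 25.6). The log2 fold changes were -2.15 ± 0.17 in liver, -2.15 ± 0.12 in kidney and -1.83 ± 0.19 in lung. The fold in liver less that in kidney was 0.01, with a 95% interval of -0.42 to 0.45.

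*Cyp2j5* was lower in the same 5 strains in the organs that use it. Liver levels were 334 to 449 (median 410) against 510 to 1085 (median 753), and kidney levels 538 to 656 (median 571) against 763 to 1280 (median 1083), again without overlap. The log2 fold changes were -0.91 ± 0.11 and -0.86 ± 0.09. Of 8826 genes in liver the 2 that did not overlap were *Cyp2j5* and *Cyp2j6* (0.0227% of genes). In kidney 3 genes of 10086 did not (0.0297%), both members and *H3f3a*, which was higher by 0.48 ± 0.08. In lung 2 of 11629 did not (0.0172%), *Cyp2j6* and *Lepr*, the leptin receptor gene on the same chromosome, which was higher by 1.50 ± 0.23. The *Cyp2j5* result depends on the scale in both organs. In these 5 kidneys the median *Rn45s* share was 5.40% against 29.7%, total-count scaling moved the median of all genes by 0.77, and under it the *Cyp2j5* fold was -0.12. On deposited TPM the values overlapped in kidney, at 792 to 872 against 567 to 1837, and in liver, at 132 to 328 against 145 to 669.

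The kidney members of the 5 strains moved apart from one another. *Cyp2j11* was higher by 0.49 ± 0.16 and *Cyp2j13* by 0.52 ± 0.19, with overlapping values, and *Cyp2j9* differed by -0.38 ± 0.19. Under total-count scaling, with its shift of 0.77 for all genes, these became 1.24, 1.25 and 0.40, and the kidney *Cyp2j6* fold became -1.36. The share of *Cyp2j5* in the kidney family sum was accordingly 37.9% to 44.6%, against 58.9% to 71.4% in the 31 strains, a comparison within libraries that no scaling between libraries can change. In lung *Cyp2j9* was lower by 1.19 on the log2 scale (SE 0.22), with overlap.

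CC042, the 1 strain of length 3585, was unlike both groups. Its *Cyp2j6* was the lowest of all kidneys at 3.93, and in liver it lay within the range of the 5 strains at 22.8, yet its lung value of 9.26 lay above the lung median. *Cyp2j9* was the lowest of all strains in its liver (3.93) and kidney (7.43) and *Cyp2j13* the lowest in its kidney (121), while its lung *Cyp2j9* was 7.08. These are single libraries without a replicate.

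**Figure D3:**
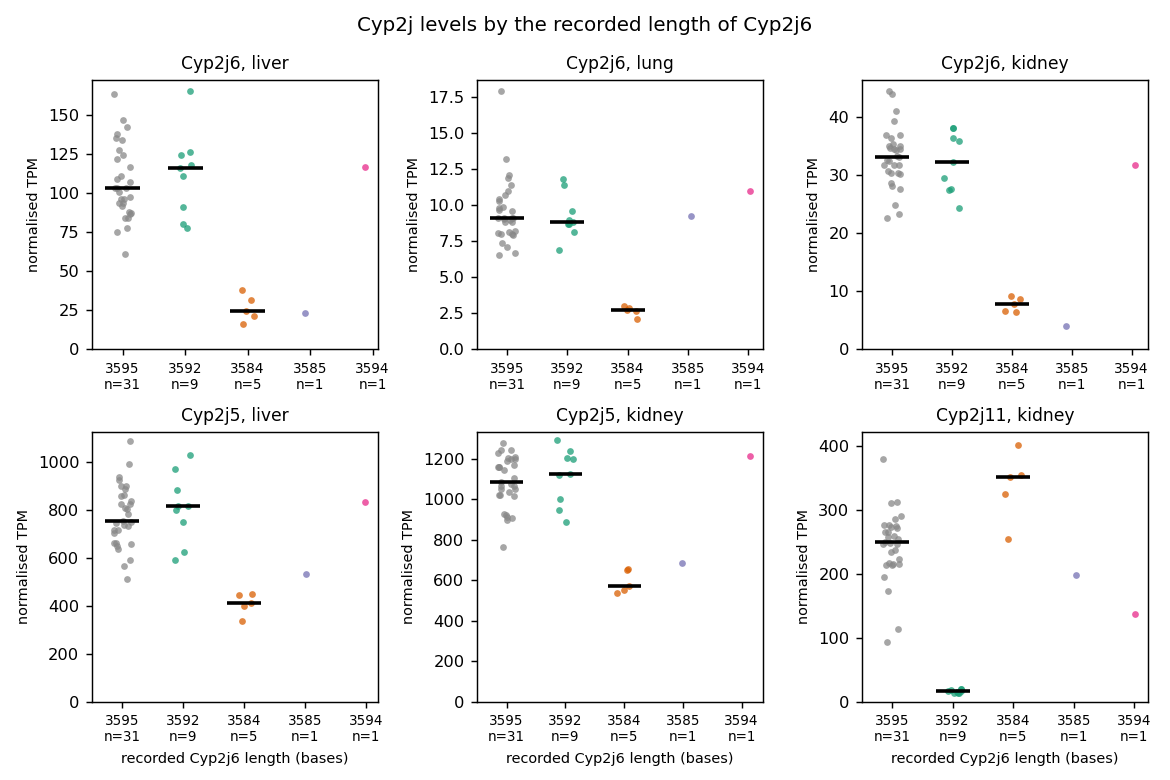
Levels of *Cyp2j6*, *Cyp2j5* and *Cyp2j11* by the recorded length of the *Cyp2j6* transcript in bases (x axis, with the number of strains); the y axis is TMM-normalised TPM from 0, each point is 1 strain and black bars are medians of groups with more than 1. The 5 strains of length 3584 lie below the 31 of length 3595 in all panels but that of *Cyp2j11*, where the 9 strains of length 3592 lie at 12.9 to 20.1.

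To ask whether a strain's level carried over between tissues, members were correlated over strains (Pearson's r on rank-normalised values, permutation test, 11 correlations, adjusted over them). *Cyp2j9* correlated between liver and kidney (r = 0.65, rho = 0.61, p = 1e-05, adjusted p = 0.00011, both by permutation), and r was 0.62 without the 2 most extreme strains. It persisted within the 31 strains of one recorded length (r = 0.54, permutation p = 0.0018). *Cyp2j5* correlated between liver and kidney over all strains (r = 0.53, rho = 0.50, permutation p = 0.00014, adjusted p = 0.00077, r = 0.48 without 2 strains), but within the 31 strains r was 0.13 (permutation p = 0.484). *Cyp2j6* between liver and lung behaved likewise, with r = 0.49 (rho = 0.46, permutation p = 0.00054, adjusted p = 0.00198, r = 0.40 without 2 strains) and r = 0.26 within the 31 strains. No lung correlation of *Cyp2j5* or *Cyp2j9* with another tissue passed. With kidney, *Cyp2j6* was correlated apart in the 41 strains above its kidney gap and the 6 below. Between liver and kidney r was -0.006 and 0.12, and between lung and kidney 0.06 and -0.86 (adjusted p = 0.0993 for the last, permutation). None of these passed. The liver and lung values of *Cyp2j6* were not split in this way.

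Within a tissue, 23 correlations between members were computed. In liver *Cyp2j5* and *Cyp2j6* correlated over strains (r = 0.83, rho = 0.79, permutation p = 1e-05, adjusted p = 0.000115, r = 0.82 without 2 strains), and within the 31 strains r was 0.72. In lung *Cyp2j6* and *Cyp2j9* did so (r = 0.64, rho = 0.62, permutation p = 1e-05, adjusted p = 0.000115, r = 0.55 without 2 strains, 0.50 within the 31 strains). In kidney *Cyp2j5* correlated with *Cyp2j9* (r = 0.54, rho = 0.57, permutation p = 0.00013, adjusted p = 0.000997, r = 0.56 without 2 strains, 0.58 within the 31 strains). *Cyp2j5* and *Cyp2j6* in kidney were the fourth pair to pass, over the 41 strains above the *Cyp2j6* gap (r = 0.52, rho = 0.46, permutation p = 0.00051, adjusted p = 0.00293, r = 0.36 without 2 strains), and within the 31 strains r was 0.36 (permutation adjusted p = 0.0917). *Cyp2j5* and *Cyp2j11* in kidney had r = 0.06 over the 38 strains above the *Cyp2j11* gap but r = 0.63 within the 31 strains (permutation p = 0.00022, adjusted p = 0.00176 over 16 correlations), and the 7 strains in the first set alone are the 5 of length 3584, CC042 and CC049. Members of one library share its depth and scaling.

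Members were also set against summary scores of cell type markers in 55 correlations. *Cyp2j13* in kidney followed a score of 5 androgen-responsive kidney genes (*Kap*, *Odc1*, *Slco1a1*, *Gusb* and *Tmem27*), with r = 0.58, rho = 0.61, permutation p = 4e-05 and adjusted p = 0.0022. Without the 2 most extreme strains r was 0.57, and within the 31 strains it was 0.70. *Cyp2j11* followed 8 markers of the S3 segment of the proximal tubule over the 38 strains above its gap (r = 0.48, rho = 0.51, permutation p = 0.00214, adjusted p = 0.0402), with r = 0.40 without 2 strains and 0.56 within the 31 strains. In the 9 strains below the gap r had the opposite sign (r = -0.81, rho = -0.75, exact permutation p = 0.00912, adjusted p = 0.125) and did not pass. In lung *Cyp2j9* had r = -0.43 with alveolar epithelial markers, which did not pass within the 31 strains. Without the 4 strains with the shallowest libraries, the *Cyp2j13* relation was the 1 of these 3 that still passed, although r hardly moved for *Cyp2j11* (0.48) and for *Cyp2j9* (-0.43).

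**Figure D4:**
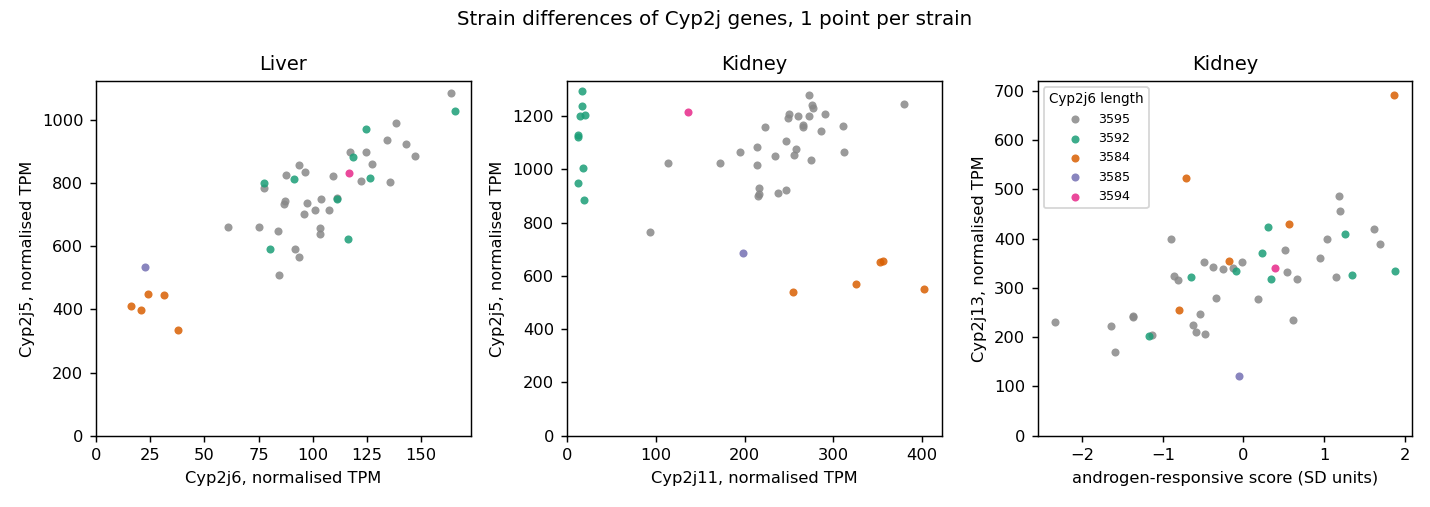
Relations between strains, 1 point per strain, coloured by the recorded *Cyp2j6* length. Left, liver *Cyp2j5* against *Cyp2j6*; middle, kidney *Cyp2j5* against *Cyp2j11*; right, kidney *Cyp2j13* against the androgen-responsive score in SD units; other axes are normalised TPM. The points of length 3584 (5 strains) sit low in *Cyp2j5* in the first and middle panels, and the 9 of length 3592 form a column at the left of the middle panel.

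The genes most like each member over the 47 strains were ranked by Spearman's rho in the tissue of its highest level, leaving out the other members. For *Cyp2j13* in kidney these were *Slco1a1* (0.73), an organic anion transporter that is also in the androgen-responsive score, *Lap3* (0.70), *Slc22a30* (0.69), *Adh1* (0.68) and *Hsd17b11* (0.66), none of them on chromosome 4. For *Cyp2j6* in liver, where *Cyp2j5* was closer (0.79), the first gene outside the family was its neighbour *Hook1* (0.65), followed by *Sep15* (0.62), *Rlf* (0.60), *Mrpl20* (0.60) and *Zmpste24* (0.60). *Cyp2j5* in kidney had the same rounded rho with *Cyp2j6* (0.64) as with the first gene outside the family, *Lrrc19* (0.64), which starts at chr4:94303344, then *Fam151b* (0.62), *Rps6* (0.59), *Mfsd4b5* (0.57) and *Itm2b* (0.56). *Cyp2j9* in kidney was most like *Tmem174* (0.67), *Gm10804* (0.60), *Lrig3* (0.58), *Zbed5* (0.57) and *Ssu72* (0.56). *Cyp2j11* in kidney was most like *Oxsm* (0.64), *Zfp866* (0.59), *Apela* (0.55), *Glce* (0.52) and *2210408I21Rik* (0.51). Of the 20 most alike genes, 2 for *Cyp2j5*, 1 each for *Cyp2j6*, *Cyp2j9* and *Cyp2j11* and 0 for *Cyp2j13* lay within 10 Mb of the family, where 0.436% of the genes compared in kidney and 0.419% of those in liver lie. These rankings are descriptions over strains that share libraries and depth. They used all 47 strains, without a split at the kidney gaps of *Cyp2j6* and *Cyp2j11*. With the split, rho of *Cyp2j5* and *Cyp2j6* in kidney was 0.46 in the 41 strains above the *Cyp2j6* gap and -0.43 in the 6 below.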

How the data were processed

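RNA-seq of liver, lung and kidney was analysed, with samples grouped by the tissue and strain in their labels. Per the study's methods, the authors filtered reads on quality, removed adapters with TagDust, and aligned them with RSEM and STAR 2.5.3a to strain-specific mm9 genomes with RefSeq transcripts, quantifying unique alignments. They deposited an expected count, a TPM and an FPKM value per gene and library; FPKM was not used. Expected counts, 25 of which were not whole, were rounded. The batches of the study's methods are not in the labels and were not analysed here.

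Genes with at least 1 CPM in at least 30% of libraries were fitted with limma-voom (limma 3.58.1, edgeR 4.0.16 TMM factors, R 4.3.3), all tissues together, with mouse as a block and Benjamini-Hochberg adjustment. The 3 tissues of a strain pair because they come from the same mouse. Over the 12127 genes the deviations from the tissue means had a median correlation of 0.173 (liver and kidney), 0.166 (liver and lung) and 0.211 (lung and kidney) within mice. The fit was tested on simulated data. Shares, orders, spreads and correlations used 100000 permutations in Python 3.11.15 (numpy 2.4.6, scipy 1.17.1); the smallest p is 1e-05. Levels are deposited TPM divided by TMM factors over all libraries. Correlations over strains used TPM divided by TMM factors computed within each tissue. The fit by recorded length was made within tissues, and gene lists were described by counts. Positions come from GENCODE vM1 and promoters from the RefSeq GRCm38.p6 table. Alternatives were DESeq2 1.42.0 size factors, total-count scaling, log2(TPM + 1) and log2(TPM + 0.1), edgeR, no filter, 2 tissues only, no block, and omission of shallow strains.

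Named genes are the 7 members, the 5 genes most like each by Spearman's rho in its highest tissue, up to 3 genes per pathway list and tissue pair with the largest called change, *Por* and *Ephx2*, and neighbours of the block. Members and lists were chosen with earlier results of these data known.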

Additional observations from a re-analysis of the deposited data

How the results depend on the processing

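Alternatives kept most numbers of members called, but not always the same members. Between liver and kidney the members changed under total-count scaling, log2(TPM + 1) and log2(TPM + 0.1). There *Cyp2j6* fell short of the limit (0.808, 0.759 and 0.778). *Cyp2j5* (-1.414, -1.435 and -1.437) and *Cyp2j9* (-1.306, -1.27 and -1.339) were called lower in liver. The median of all genes stood at -0.954, -0.718 and -0.939 in these settings. The numbers of members called between tissues were the same without the replicate block that pairs the tissues of a mouse (3 between liver and kidney, 4 between liver and lung and 5 between lung and kidney). Between liver and lung, the 4 calls fell to 2 under total-count scaling, log2(TPM + 1) and log2(TPM + 0.1). Under these, the log2 difference reversed for *Cyp2j11* (-0.063, -0.025 and -0.101) and *Cyp2j13* (-0.392, -0.083 and -0.307), and for *Cyp2j9* under log2(TPM + 1) (-0.052) and log2(TPM + 0.1) (-0.058). These settings moved the median of all genes from -0.06 to -1.44, -1.21 and -1.52. *Cyp2j9*, with median counts of 78 in liver and 74 in lung, remained higher in liver relative to it. *Cyp2j11* had median counts of 2 and 1, and *Cyp2j13* of 4 and 4. At such counts a constant added before the log pulls the difference towards 0. Their place above the median therefore cannot show a higher level in liver. In the comparisons by recorded length, all added after seeing the data, total-count scaling turned the kidney *Cyp2j9* fold of the 5 strains to 0.40, where the median of all genes moved by 0.77. Within the strains of length 3595, also added later and with fewer strains, 1 of the 3 correlations between tissues passed. Without shallow strains, 1 of the 3 correlations with marker scores passed, with r hardly moved in the others (0.48 and -0.43). Leaving out CC010, CC015, CC033 and CC035, also added later, kept the numbers of members called. Across all alternatives to the main counts, 46 values stayed within 1.5 times the main count and 5 fell below. A count can stay while the members behind it change. Depth limits *Cyp2j8* and *Cyp2j12* in all tissues and *Cyp2j11* and *Cyp2j13* outside kidney. Without TMM factors, 3 counts in a library of median depth are 0.288 to 0.364 CPM.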
